A study of Mus musculus with 12 samples.

Results

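The growth hormone and insulin-like growth factor (IGF) axis was followed in sorted mouse hepatocytes over a knockout and an acute liver injury, through 9 genes: the growth hormone receptor Ghr, the ligand Igf1, its carrier subunit Igfals, the IGF-binding proteins Igfbp1, Igfbp2 and Igfbp4, and the feedback genes Socs2, Cish and Socs3. The genes were taken by symbol and made up 9 of the 37141 gene rows of the deposited count table; all 9 passed the low-count filter that left 10780 genes for testing. The study asked whether YAP and TAZ, the transcriptional coactivators that the Hippo kinases restrain, matter for hepatocytes that regenerate after injury. Each of the 4 groups had 3 samples. The group Yap/Taz KO + CCl4 carried floxed alleles (Yapflox/flox; Tazflox/flox), was given an AAV8 vector (5e11 genome copies) in which the hepatocyte promoter TBG drives Cre, and 3 weeks later was given carbon tetrachloride (CCl4, a hepatotoxin) at 1 ml/kg in corn oil, 48 h before the cells were taken. The group ctrl + CCl4 carried the same floxed alleles and received CCl4 alone, the group Yap/Taz KO received the vector alone, and the group ctrl had neither. The labels name no control vector and no oil injection, so a knockout difference includes any effect of the vector and an injury difference any effect of the injection. The TBG promoter is meant to limit Cre to hepatocytes, so that other liver cells keep both genes, which was not measured here. Age and sex are not given in the labels used here. All groups shared the preparation: collagenase perfusion, 2 slow spins, flow sorting and 500000 sorted cells per sample. Nothing states that the 3 samples of a group are 3 animals, so every p-value rests on a spread between samples that could be technical.

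Growth hormone from the pituitary binds its receptor on hepatocytes, which activates the kinase JAK2 and the transcription factor STAT5. STAT5 in turn drives Igf1, Igfals, Socs2 and Cish, and the proteins of the last pair dampen the receptor's signal. The liver is the main source of circulating IGF1, most of which travels bound to an IGF-binding protein and the acid-labile subunit encoded by Igfals. Insulin lowers Igfbp1 by removing FOXO factors from its promoter, and Socs3 is a feedback inhibitor best known for limiting cytokine signalling through gp130 and STAT3.

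Promoter sequence was available for 8 of the 9 genes, in 12 windows of 300 bases that ran from 250 before to 50 after a RefSeq start on GRCm38.p6; Socs2 had no entry. The stretches below are shown because they hold the letters through which STAT factors and FOXO factors are known to bind. The STAT letters are TTCNNNGAA, which read the same on both strands, and the FOXO letters are CAAAANA, searched on both strands (TNTTTTG on the other one); no match of one pattern overlaps a match of the other in these windows. Capitals mark the matches and everything runs 5′ to 3′ on the strand of the gene.
Igfals, chr17:24877594-24877641, plus strand: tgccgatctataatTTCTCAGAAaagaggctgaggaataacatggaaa
Igfals, chr17:24878148-24878206, plus strand: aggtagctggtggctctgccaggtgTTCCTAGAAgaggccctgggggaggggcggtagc
Cish, chr9:107296654-107296683, plus strand: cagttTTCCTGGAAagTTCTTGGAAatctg
Socs3, chr11:117969487-117969545, minus strand: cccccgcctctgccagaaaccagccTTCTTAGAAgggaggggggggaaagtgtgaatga
Igfbp1, chr11:7197654-7197721, plus strand: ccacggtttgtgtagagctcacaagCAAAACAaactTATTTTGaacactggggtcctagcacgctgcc
The STAT letters stood in 4 of the 12 windows, against 8.3% of all 32851 RefSeq windows of the same length. They lay at -236 and -58 from different starts of Igfals, at -154 in Socs3, and from 1 in Cish, as a pair. The FOXO letters stood in 2 of the 12 windows, against 18.6% of all windows: from -108 in Igfbp1, as a pair on opposite strands, and at -138 in Cish. The windows of Ghr, Igf1, Igfbp2 and Igfbp4 held neither set of letters. A match describes these letters and is not evidence of binding.

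Total counts ran from 1617761 to 3028951 per library, and the first 2 principal components of log2 CPM (counts scaled to a common library size) held 52.5% and 10.3% of the variance. All 10 hepatocyte markers (Alb, Apoa1, Ttr, Hnf4a and others) were detected in every library. Their summed level was 69392 to 86956 CPM in Yap/Taz KO + CCl4, 47050 to 63749 CPM in ctrl + CCl4, 113412 to 141748 CPM in Yap/Taz KO and 97623 to 134115 CPM in ctrl. Markers of other liver cells were also present: the 11 macrophage markers summed to 1804 to 2757 CPM in Yap/Taz KO + CCl4, 2313 to 4018 CPM in ctrl + CCl4, 219 to 1019 CPM in Yap/Taz KO and 446 to 2452 CPM in ctrl. Lymphocyte markers stayed at or under 10.8 CPM in sum, and Cd79a was at 0 in all 12 libraries. A pair of ctrl libraries stood apart from the rest of their group. Replicate 1 had the highest macrophage, endothelial, stellate and erythroid sums among the uninjured libraries, and replicate 3 lay far from the others on the second component. Their weight in each result of the axis genes is given below where leaving one out changes a call.

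Yap1, the gene for YAP, had 14.8, 14.2 and 14.4 CPM in Yap/Taz KO + CCl4, against 53.5, 50.6 and 65.7 CPM in ctrl + CCl4. Without injury it had 22.2, 9.65 and 14.9 CPM in Yap/Taz KO, against 40.3, 61.9 and 71.8 CPM in ctrl. The log2 fold change was -1.96 ± 0.30 (SE) after CCl4 and -1.89 ± 0.31 without injury, and the groups did not overlap in either state. In edgeR the adjusted p was 0.0995 after CCl4 and 0.102 without injury, both short of the threshold of 0.05, while DESeq2 gave 4.2e-06 and 2e-04. Of 21 alternative settings, DESeq2 included, Yap1 passed in 8 after CCl4 and in 3 without injury. Wwtr1, the gene for TAZ, had 25.3, 19.9 and 24.8 CPM in Yap/Taz KO + CCl4, against 33.7, 32.6 and 34.8 CPM in ctrl + CCl4, and 15.7, 10.1 and 18.3 CPM in Yap/Taz KO, against 57.6, 24.2 and 34.8 CPM in ctrl. Its groups did not overlap in either state, with log2 fold changes of -0.53 ± 0.31 after CCl4 (edgeR adjusted p = 0.983) and -1.40 ± 0.33 without injury (0.235; DESeq2 0.0301). The libraries were of the 3′ tag kind, which counts reads close to a transcript's end, and such a tag can lie outside the deleted exons, so the remaining counts do not measure how complete the deletion was.

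Across the axis, 2 of the 9 genes fell after CCl4 in knockouts and 6 of the 9 fell in controls, and no member rose in either genotype. Those that fell in knockouts were the receptor Ghr and the binding protein Igfbp2; those that fell in controls were Ghr, the ligand Igf1, its carrier subunit Igfals, the binding proteins Igfbp2 and Igfbp4, and the feedback gene Socs2. Over all genes tested, 8.35% were called lower in knockouts and 12% in controls (edgeR, adjusted p under 0.05). Called higher were 9.42% in knockouts and 10.5% in controls, so the lack of a rise among 9 genes is near those shares. The median log2 fold change of the 9 genes was -0.56 in knockouts and -1.26 in controls, where all 10780 genes had medians of 0.03 in each. The 10 hepatocyte markers had medians of -0.87 in knockouts, with 3 called lower, and -1.17 in controls, with 9 called lower. By the plain criterion that the 3 injured libraries all lay under the 3 uninjured ones, 3 of the 9 were lower in knockouts, against 18.1% of all genes, and 5 of the 9 were lower in controls, against 17.5%. Summed hepatocyte markers were also lower in all injured libraries than in all uninjured ones, and in these bulk samples fewer hepatocytes and less RNA per hepatocyte cannot be told apart.

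**Figure D1:**
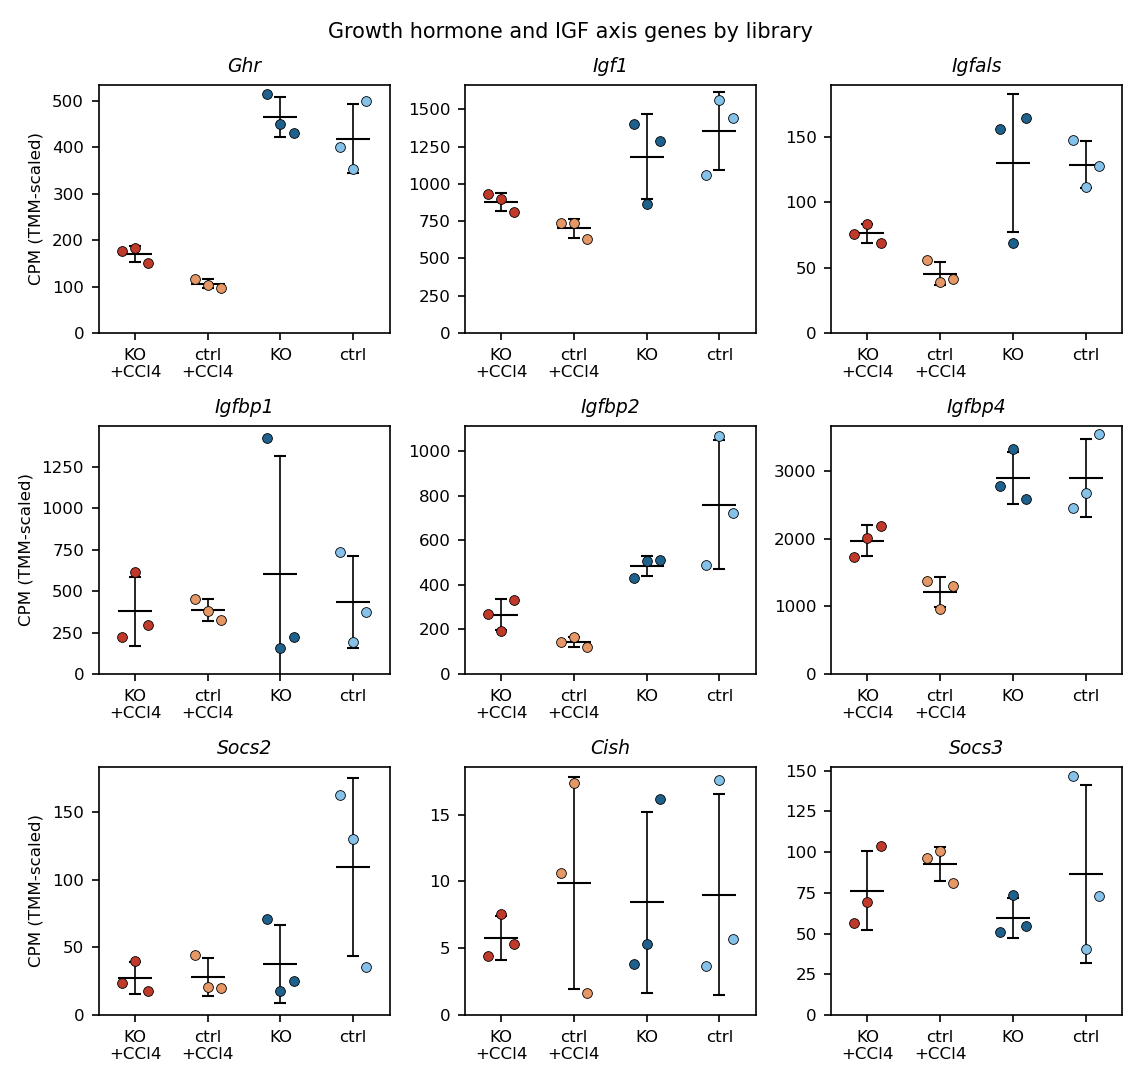
Levels of the 9 axis genes in TMM-scaled CPM (y axis) in each of the 12 libraries, by group (x axis; KO is Yap/Taz KO). Each point is 1 library, horizontal lines are group means and bars are 1 SD of 3 libraries; the lower bar of Igfbp1 in KO runs under 0 and is cut off at the axis. Ghr lies between 97.6 and 184 CPM in the 6 injured libraries and between 354 and 514 CPM in the 6 uninjured ones.

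Ghr (ENSMUSG00000055737.12, chr15:3317760-3583492, minus strand, GRCm38) had the smallest adjusted p of the 9 in both injury responses. Its level was 176, 184 and 150 CPM in Yap/Taz KO + CCl4, 117, 103 and 97.6 CPM in ctrl + CCl4, 514, 449 and 431 CPM in Yap/Taz KO, and 401, 354 and 499 CPM in ctrl. Every injured library lay under every uninjured one, and within the injured libraries the knockouts lay above the controls without overlap. The mean was 170 ± 17.7 CPM in Yap/Taz KO + CCl4, 106 ± 10.1 CPM in ctrl + CCl4, 465 ± 43.6 CPM in Yap/Taz KO and 418 ± 74.1 CPM in ctrl (SD, n = 3 each). In knockouts CCl4 lowered Ghr by a log2 fold change of -1.45 ± 0.20 (95% interval -1.88 to -1.03, edgeR adjusted p = 0.000185). In controls it lowered Ghr by -1.98 ± 0.20 (-2.41 to -1.55, adjusted p = 1.35e-05). Both calls held under all 21 alternative settings, with adjusted p from 4.8e-11 to 0.0292 in knockouts and from 5.32e-20 to 0.00646 in controls. Counting error was small beside these differences, since the lowest count of Ghr in a library was 303.

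Igf1 (ENSMUSG00000020053.18, chr10:87858265-87937042, plus strand) encodes the hormone through which growth hormone acts on much of the body. It had 930, 898 and 809 CPM in Yap/Taz KO + CCl4, 740, 740 and 628 CPM in ctrl + CCl4, 1400, 864 and 1286 CPM in Yap/Taz KO, and 1058, 1562 and 1442 CPM in ctrl. All 3 injured control libraries lay under all 3 ctrl libraries, whereas replicate 2 of Yap/Taz KO lay among the injured knockouts. Igf1 fell after CCl4 in controls, by a log2 fold change of -0.95 ± 0.22 (SE; 95% interval -1.42 to -0.47, edgeR adjusted p = 0.00671). In knockouts the log2 fold change was -0.43 ± 0.22 (-0.90 to 0.04, adjusted p = 0.203), which did not pass. With library totals in place of TMM scaling the call in controls was lost (log2 fold change -0.57, adjusted p = 0.0767).

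Igfals (ENSMUSG00000046070.9, chr17:24865997-24882010, plus strand) encodes the acid-labile subunit that keeps IGF1 in the circulation. Its level was 75.8, 83.4 and 69.1 CPM in Yap/Taz KO + CCl4, 55.7, 39.0 and 41.6 CPM in ctrl + CCl4, 156, 69.0 and 164 CPM in Yap/Taz KO, and 147, 111 and 127 CPM in ctrl. As with Igf1, replicate 2 of Yap/Taz KO was the low uninjured library, at the level of the injured knockouts. Igfals fell in controls, by a log2 fold change of -1.50 ± 0.29 (SE; -2.12 to -0.88, edgeR adjusted p = 0.0019). In knockouts the log2 fold change was -0.77 ± 0.28 (-1.38 to -0.16), with an adjusted p of 0.0765 over all 12 libraries. Without Yap/Taz KO replicate 2 it was -1.08, with an adjusted p of 0.00849. Without the low-count filter, with all libraries kept, it passed narrowly (-0.77, adjusted p = 0.0495).

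The ratio of Ghr to Igf1 within a library does not depend on how libraries are scaled. Per 100 Igf1 counts there were 18.9, 20.5 and 18.5 Ghr counts in Yap/Taz KO + CCl4, 15.8, 14.0 and 15.5 in ctrl + CCl4, 36.7, 51.9 and 33.5 in Yap/Taz KO, and 37.9, 22.7 and 34.6 in ctrl. The receptor's share was lower in all 6 injured libraries than in all 6 uninjured ones, so receptor and ligand transcripts changed unequally after CCl4. The ratios of Igfals, Igfbp1, Igfbp2 and Igfbp4 to Igf1 overlapped between injured and uninjured libraries. All these ratios are given as a description, with no test, and the part of cell make-up in them was not tested.

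Among the binding proteins, Igfbp2 (ENSMUSG00000039323.18, chr1:72824503-72852474, plus strand) had the largest log2 fold changes. It had 271, 193 and 332 CPM in Yap/Taz KO + CCl4, 144, 164 and 121 CPM in ctrl + CCl4, 431, 506 and 512 CPM in Yap/Taz KO, and 489, 1067 and 724 CPM in ctrl. Injured and uninjured libraries did not overlap in either genotype, and the 4 groups stood in the order ctrl, Yap/Taz KO, Yap/Taz KO + CCl4 and ctrl + CCl4 from highest to lowest mean, with overlap between the first pair alone. In knockouts Igfbp2 fell by a log2 fold change of -0.86 ± 0.27 (SE; -1.45 to -0.28, edgeR adjusted p = 0.0419). That call was close to the threshold: it was lost with library totals (-0.49, adjusted p = 0.222) and without any 1 of 8 of the 12 libraries, where the log2 fold change lay between -0.94 and -0.68. In controls Igfbp2 fell by -2.41 ± 0.29 (-3.02 to -1.79, adjusted p = 3.94e-05), with adjusted p of at most 0.00178 under the 21 alternatives.

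Igfbp4 (ENSMUSG00000017493.12, chr11:99041244-99054392, plus strand), which binds IGFs and limits their action, had 1722, 2006 and 2187 CPM in Yap/Taz KO + CCl4, 1369, 955 and 1306 CPM in ctrl + CCl4, 2775, 3322 and 2584 CPM in Yap/Taz KO, and 2453, 2679 and 3541 CPM in ctrl. Injured libraries lay under uninjured ones in both genotypes. Igfbp4 fell in controls, by a log2 fold change of -1.26 ± 0.22 (SE; -1.72 to -0.79, edgeR adjusted p = 0.000875). In knockouts the log2 fold change was -0.55 ± 0.22 (-1.01 to -0.09) and the adjusted p was 0.0928.

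Igfbp1 (ENSMUSG00000020429.7, chr11:7197782-7202546, plus strand), the binding protein whose promoter carries the paired FOXO letters shown above, varied widely within groups. It had 220, 615 and 296 CPM in Yap/Taz KO + CCl4, 453, 377 and 327 CPM in ctrl + CCl4, 1421, 158 and 221 CPM in Yap/Taz KO, and 738, 192 and 374 CPM in ctrl. All 4 groups overlapped. Replicate 1 of Yap/Taz KO was the highest of all 12 libraries, and without it the log2 fold change of the injured knockouts over the uninjured ones was 0.99, against -0.67 ± 0.67 (SE; adjusted p = 0.542) with it. In controls the adjusted p was 0.888. The lowest count was 328, so this scatter was far above counting error.

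Of the feedback genes, Socs2 (ENSMUSG00000020027.18, chr10:95385362-95417180, minus strand), a STAT5 target whose loss causes overgrowth in mice, had 24.0, 40.1 and 17.6 CPM in Yap/Taz KO + CCl4, 44.7, 20.4 and 20.3 CPM in ctrl + CCl4, 70.9, 17.9 and 25.1 CPM in Yap/Taz KO, and 163, 130 and 35.5 CPM in ctrl. The high values were those of ctrl replicates 1 and 2, and ctrl replicate 3 lay inside the range of the injured controls. Socs2 fell in controls, by a log2 fold change of -1.96 ± 0.56 (SE; -3.16 to -0.75, edgeR adjusted p = 0.0215). The call was lost without ctrl replicate 1 (-1.56, adjusted p = 0.0527), ctrl replicate 2 (-1.82, 0.054), ctrl + CCl4 replicate 2 (-1.75, 0.0944) or ctrl + CCl4 replicate 3 (-1.76, 0.0985). It was also lost with library totals and when libraries were scaled to the hepatocyte markers, with or without Alb. In knockouts the groups overlapped and the adjusted p was 0.624.

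Socs3 (ENSMUSG00000053113.3, chr11:117966079-117970047, minus strand) did not pass in either genotype, with adjusted p of 0.56 in knockouts and 0.895 in controls. Its level was 56.5, 69.2 and 104 CPM in Yap/Taz KO + CCl4, 96.3, 101 and 80.9 CPM in ctrl + CCl4, 50.9, 73.8 and 54.5 CPM in Yap/Taz KO, and 147, 40.3 and 73.2 CPM in ctrl. Ctrl replicate 1 held the highest Socs3, Socs2 and Igfbp1 of its group and also the highest macrophage sum of that group (2452 CPM, against 446 and 581 CPM); the part of other cells in those values was not tested. Cish (ENSMUSG00000032578.7, chr9:107296026-107302784, plus strand), the STAT5 target with 2 such STAT matches side by side at its start, had only 5 to 57 counts per library. It had 4.42, 7.58 and 5.34 CPM in Yap/Taz KO + CCl4, 10.6, 17.4 and 1.61 CPM in ctrl + CCl4, 3.79, 5.31 and 16.2 CPM in Yap/Taz KO, and 3.70, 17.6 and 5.69 CPM in ctrl. The adjusted p was 0.668 in knockouts and 0.926 in controls, and the 3 libraries of a group scattered widely.

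**Figure D2:**
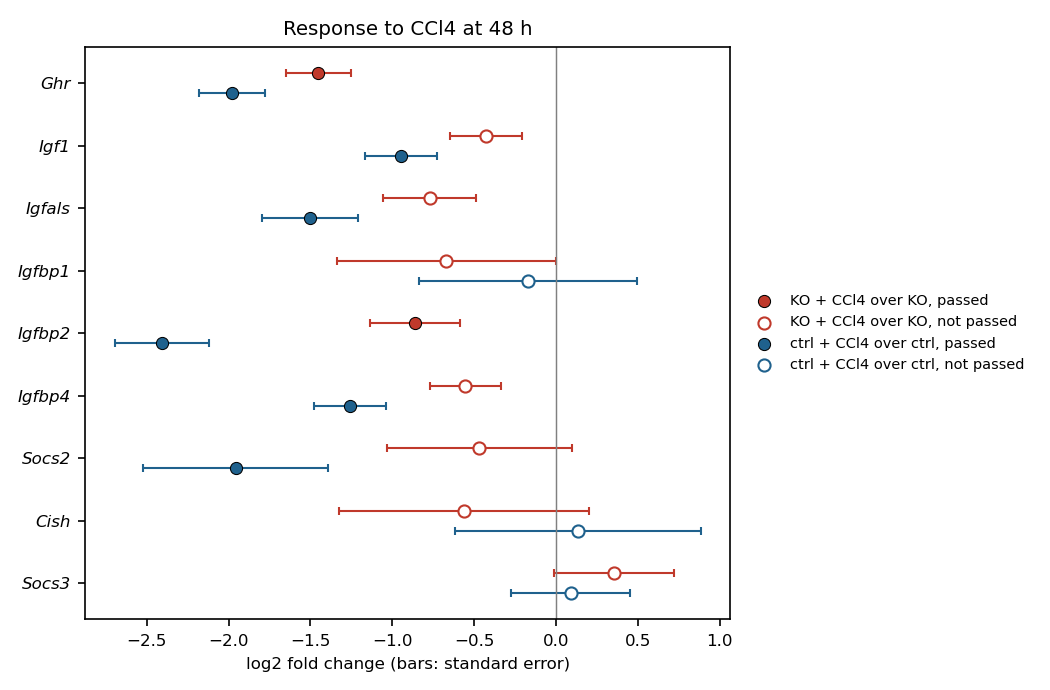
Log2 fold change (x axis) of each axis gene (y axis) in CCl4-injured over uninjured samples, for knockouts (red, upper point of each pair) and controls (blue, lower point), with bars of 1 SE. Filled points passed the edgeR test at an adjusted p of 0.05: Ghr and Igfbp2 in knockouts, and Ghr, Igf1, Igfals, Igfbp2, Igfbp4 and Socs2 in controls.

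The knockout was then compared with its control within each injury state. After CCl4, Ghr, Igf1, Igfals, Igfbp2 and Igfbp4 each had all 3 knockout libraries above all 3 control libraries, 5 of the 9 genes, where 8.50% of all genes tested were higher without overlap. None of the 9 passed the adjusted test, as was true of all 10780 genes: 0% were called by edgeR, 613 genes had an unadjusted p under 0.05, and DESeq2 called 17. The largest difference was that of Igfbp2, which averaged 265 ± 69.8 CPM in Yap/Taz KO + CCl4 and 143 ± 21.5 CPM in ctrl + CCl4 (SD, n = 3 each; log2 fold change 0.89 ± 0.28 SE, 0.30 to 1.48, unadjusted p = 0.00572, adjusted p = 0.772). For Igfbp4 the means were 1972 ± 234 CPM in Yap/Taz KO + CCl4 and 1210 ± 223 CPM in ctrl + CCl4 (0.70 ± 0.22, 0.24 to 1.17, unadjusted p = 0.0054, adjusted p = 0.772). Ghr differed by 0.68 ± 0.20 (0.26 to 1.10, unadjusted p = 0.00365, adjusted p = 0.759) and Igfals by 0.74 ± 0.29 (0.13 to 1.36, unadjusted p = 0.0205, adjusted p = 0.828). These 4 of the 9 had an unadjusted p under 0.05 and were higher in knockouts, against 4.07% of all genes. Igf1 differed by 0.32 ± 0.22 (-0.15 to 0.79, adjusted p = 0.986), and for Igfbp1, Socs2 and Socs3 the difference was smaller than its standard error. Cish differed by -0.77 ± 0.75 (adjusted p = 0.99).

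Summed cell markers also differed between injured knockouts and injured controls. The hepatocyte markers summed to 86956, 69392 and 75691 CPM in Yap/Taz KO + CCl4, against 60900, 63749 and 47050 CPM in ctrl + CCl4, also without overlap. The 8 cholangiocyte markers summed to 155, 220 and 92.9 CPM in Yap/Taz KO + CCl4, against 389, 381 and 459 CPM in ctrl + CCl4. Most of that sum was Spp1, which encodes osteopontin and averaged 110 ± 61.2 CPM in Yap/Taz KO + CCl4 and 351 ± 62.8 CPM in ctrl + CCl4 (SD, n = 3 each). Sox9 averaged 39.9 ± 8.50 CPM in Yap/Taz KO + CCl4 and 54.5 ± 26.8 CPM in ctrl + CCl4, with overlap. The remaining markers of that list did not pass the low-count filter and averaged at most 2.63 CPM in either group. Krt19 and Tspan8 were higher in injured knockouts and the rest lower, so the sum describes mainly Spp1. When libraries were scaled to the 10 hepatocyte markers, a choice made after the data were seen, the differences shrank to 0.45 for Igfbp2, 0.31 for Igfals, 0.25 for Igfbp4, 0.24 for Ghr and -0.11 for Igf1, and the median of all genes moved by -0.45. With Alb left out of the markers the differences were 0.34 for Igfbp2, 0.22 for Igfals, 0.15 for Igfbp4, 0.15 for Ghr and -0.21 for Igf1. The median of all genes then moved by -0.55.

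Without injury, none of the 9 genes passed the adjusted test and none was lower in all 3 knockout libraries than in all 3 ctrl libraries. Among all genes tested 4.92% were lower without overlap, so a count of 0 among 9 genes is near that share. Over all genes, 0% were called by edgeR, 1020 genes had an unadjusted p under 0.05 and DESeq2 called 43. Socs2 averaged 38.0 ± 28.8 CPM in Yap/Taz KO and 109 ± 66.1 CPM in ctrl (SD, n = 3 each; log2 fold change -1.55 ± 0.56 SE, -2.74 to -0.35, unadjusted p = 0.015, adjusted p = 0.449). Igfbp2 averaged 483 ± 45.1 CPM in Yap/Taz KO and 760 ± 291 CPM in ctrl (-0.65 ± 0.27, -1.24 to -0.07, unadjusted p = 0.0307, adjusted p = 0.488). These 2 of the 9 had an unadjusted p under 0.05 and were lower in knockouts, against 5.40% of all genes. Socs3 differed by -0.54 ± 0.37 (adjusted p = 0.673), and by 0.09 without ctrl replicate 1. For Ghr, Igf1, Igfals, Igfbp1, Igfbp4 and Cish the difference was smaller than its standard error. The interval for Ghr was -0.26 to 0.57 and that for Igfbp4 was -0.46 to 0.46, so differences within those bounds remain possible.

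**Figure D3:**
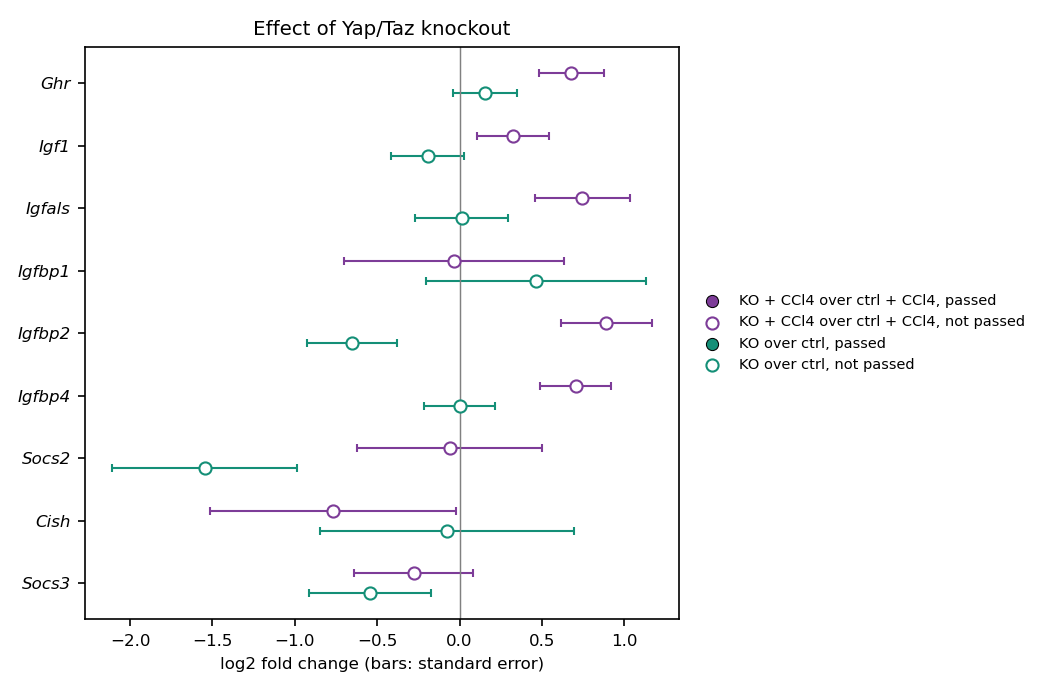
Log2 fold change (x axis) of each axis gene (y axis) in knockouts over controls, after CCl4 (purple, upper point of each pair) and without injury (green, lower point), with bars of 1 SE. All points are open because no axis gene passed the edgeR test at an adjusted p of 0.05; after CCl4, Ghr, Igfals, Igfbp2 and Igfbp4 lie between 0.68 and 0.89.

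Whether the genotypes responded differently to CCl4 was tested as the difference between the injury responses (knockouts minus controls). None of the 9 genes passed, and 0% of all genes were called by edgeR, with 874 at an unadjusted p under 0.05 and 12 called by DESeq2. Igfbp2 came closest: its log2 fold change was -0.86 in knockouts and -2.41 in controls, a difference of 1.54 ± 0.39 (SE; 0.72 to 2.37, unadjusted p = 0.00126, adjusted p = 0.533, DESeq2 adjusted p = 0.0889). Without the low-count filter edgeR gave it an adjusted p of 0.00699. Igfbp4 differed by 0.70 ± 0.30 (0.05 to 1.35, unadjusted p = 0.036, adjusted p = 0.601). These 2 of the 9 were higher with an unadjusted p under 0.05, against 4.54% of all genes. Differences for Ghr (0.52 ± 0.28), Igf1 (0.52 ± 0.31), Igfals (0.73 ± 0.40) and Socs2 (1.49 ± 0.79) had adjusted p from 0.634 to 0.669. The injury and knockout comparisons draw on the same libraries, so their values are not independent of each other: Igfbp2 in ctrl enters the injury response of controls, the knockout difference without injury and this difference alike. The smaller number of axis genes called in knockouts is therefore not shown to be a difference between the genotypes.

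Since the summed hepatocyte markers fell behind other transcripts in injured libraries, the axis genes were also expressed per 10000 hepatocyte-marker counts of the same library. On that scale Ghr had 20.2, 26.5 and 19.8 counts in Yap/Taz KO + CCl4, 19.2, 16.2 and 20.7 in ctrl + CCl4, 39.0, 31.7 and 38.0 in Yap/Taz KO, and 37.7, 36.2 and 37.2 in ctrl. Injured and uninjured libraries remained apart for Ghr, and injured knockouts and injured controls overlapped. Igf1 had 107, 129 and 107 counts in Yap/Taz KO + CCl4, 122, 116 and 133 in ctrl + CCl4, 106, 61.0 and 113 in Yap/Taz KO, and 99.6, 160 and 108 in ctrl, so that injured and uninjured libraries overlapped within each genotype. Igfbp2 had 31.2, 27.8 and 43.9 counts in Yap/Taz KO + CCl4, 23.6, 25.8 and 25.8 in ctrl + CCl4, 32.7, 35.7 and 45.2 in Yap/Taz KO, and 46.0, 109 and 54.0 in ctrl.

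In the edgeR fit scaled in this way, also chosen after the data were seen, Ghr fell by a log2 fold change of -0.71 in knockouts (adjusted p = 0.0292) and -0.98 in controls (0.0036). Igfbp2 fell in controls (-1.48, 0.00178) and had -0.14 in knockouts (0.733). Igf1, Igfals, Igfbp4 and Socs2 no longer passed in controls, and Igf1 was at 0.29 in knockouts and 0.016 in controls. Socs3 rose in both genotypes under this scaling, but in neither when Alb was left out of the markers; Alb made up 61.0% to 73.7% of the marker counts. This scaling raised the median log2 fold change of all genes by 0.73 in knockouts and 0.96 in controls, so the values are relative to hepatocyte-marker transcripts and not to the bulk of genes.

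**Figure D4:**
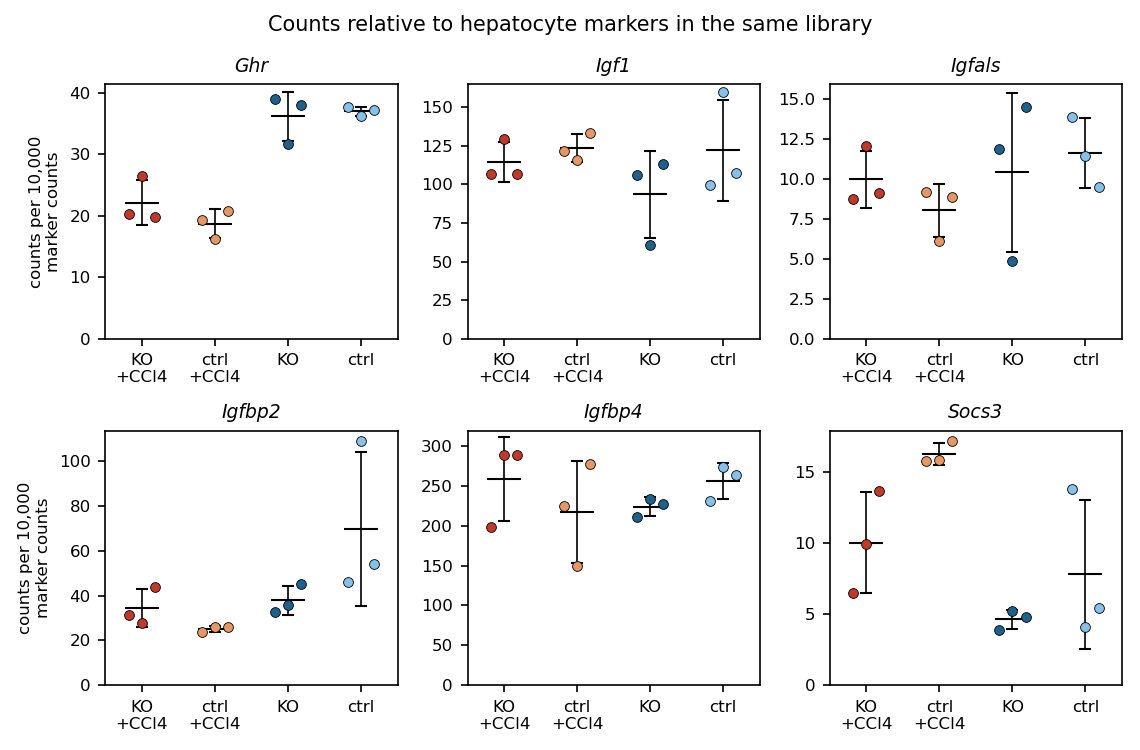
Counts of 6 axis genes per 10000 counts of the 10 hepatocyte markers in the same library (y axis), by group (x axis); points are libraries, horizontal lines are group means and bars are 1 SD of 3 libraries. Ghr stays between 16.2 and 26.5 in injured libraries and between 31.7 and 39.0 in uninjured ones, while Igf1 overlaps between injured and uninjured libraries within each genotype.

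Other genes of the pathway were counted from lists drawn up by function. These lists, like the 9 members, were chosen with earlier results of these data known, so their counts beside the shares of all genes are a description. Of the 17 tested of 18 listed receptors and signalling genes, 1 rose and 2 fell in knockouts, and 1 rose and 1 fell in controls. Over all genes tested, 9.42% were called higher and 8.35% lower in knockouts, and 10.5% higher and 12% lower in controls, so these shares were near the background. Prlr, the prolactin receptor and a relative of Ghr, had 211, 222 and 154 CPM in Yap/Taz KO + CCl4, against 809, 365 and 362 CPM in Yap/Taz KO, and 198, 131 and 127 CPM in ctrl + CCl4, against 473, 487 and 367 CPM in ctrl. Its log2 fold change was -1.39 ± 0.31 in knockouts (SE, edgeR adjusted p = 0.00643) and -1.54 ± 0.31 in controls (0.00257). Both calls were lost when libraries were scaled to the 10 hepatocyte markers (-0.64, 0.151 in knockouts, and -0.61, 0.141 in controls) or to those without Alb (-0.87, 0.127 in knockouts, and -0.64, 0.188 in controls). Ptpn1, a phosphatase that acts on JAK2 and the insulin receptor, rose by 0.96 ± 0.21 in knockouts (0.00547) and by 0.78 ± 0.21 in controls (0.0148). The call of Ptpn1 in controls was lost in 3 of the 21 alternative settings, among them leaving out ctrl replicate 2 (0.66, 0.0608) or ctrl + CCl4 replicate 3 (0.70, 0.065).

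Insr, the insulin receptor, fell in knockouts (-1.34 ± 0.38, edgeR adjusted p = 0.0232) and had -0.997 ± 0.38 in controls (0.0724). Its call was lost in 7 of the 21 alternative settings. Over all 21 the weakest log2 fold change was -0.58 and the highest adjusted p 0.262. The losses included library totals (-0.96, 0.0707). They also included fits without Yap/Taz KO + CCl4 replicate 1 or 3 or Yap/Taz KO replicate 1 or 2 (adjusted p from 0.0532 to 0.0958). Jak2, the kinase bound to Ghr, and Stat5b, the main STAT5 gene of liver, did not pass: Stat5b had -0.51 ± 0.28 in knockouts (0.237) and -0.77 ± 0.28 in controls (0.0642), and Jak2 had -0.44 ± 0.39 (0.487) in knockouts and 0.53 ± 0.39 (0.37) in controls. In controls Stat5b passed in the fit with the replicate number as a block (-0.75, 0.042), and Jak2 passed when libraries were scaled to the 10 hepatocyte markers (1.504, 0.00867) or to those without Alb (1.39, 0.0294). The median log2 fold change of the list was -0.19 in knockouts and -0.12 in controls.

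Of 10 further IGF ligands, binding proteins and proteases, 4 were tested. None passed in knockouts, where 8.35% of all genes were called lower and 9.42% higher. Igfbp3 fell in controls (-2.02 ± 0.61, edgeR adjusted p = 0.0273), where 12% of all genes were called lower and 10.5% higher. Igfbp3, the chief carrier of IGF1 in blood, had 5.49, 5.49 and 5.48 CPM in ctrl + CCl4, against 48.5, 8.56 and 8.53 CPM in ctrl. The fall rested on ctrl replicate 1, the library with the high endothelial and stellate sums (-0.63, adjusted p = 0.38 without it). Leaving out any 1 of the ctrl + CCl4 libraries also ended the call (adjusted p from 0.0832 to 0.0869). In all, the call was lost in 8 of the 21 alternative settings. The other 6, Igf2 among them, had at most 11 counts in any library. Of 9 further SOCS genes and receptors of the gp130 family, 8 were tested, beside the same shares of all genes. None passed in knockouts, and Lifr, the receptor of leukaemia inhibitory factor, fell in controls (-0.83 ± 0.25, 0.0283). Lifr was at 0.11 when scaled to the hepatocyte markers, and its call was lost with library totals (-0.47, 0.19) and without ctrl replicate 1 or any 1 of the ctrl + CCl4 libraries (adjusted p from 0.0588 to 0.127).

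**Figure D5:**
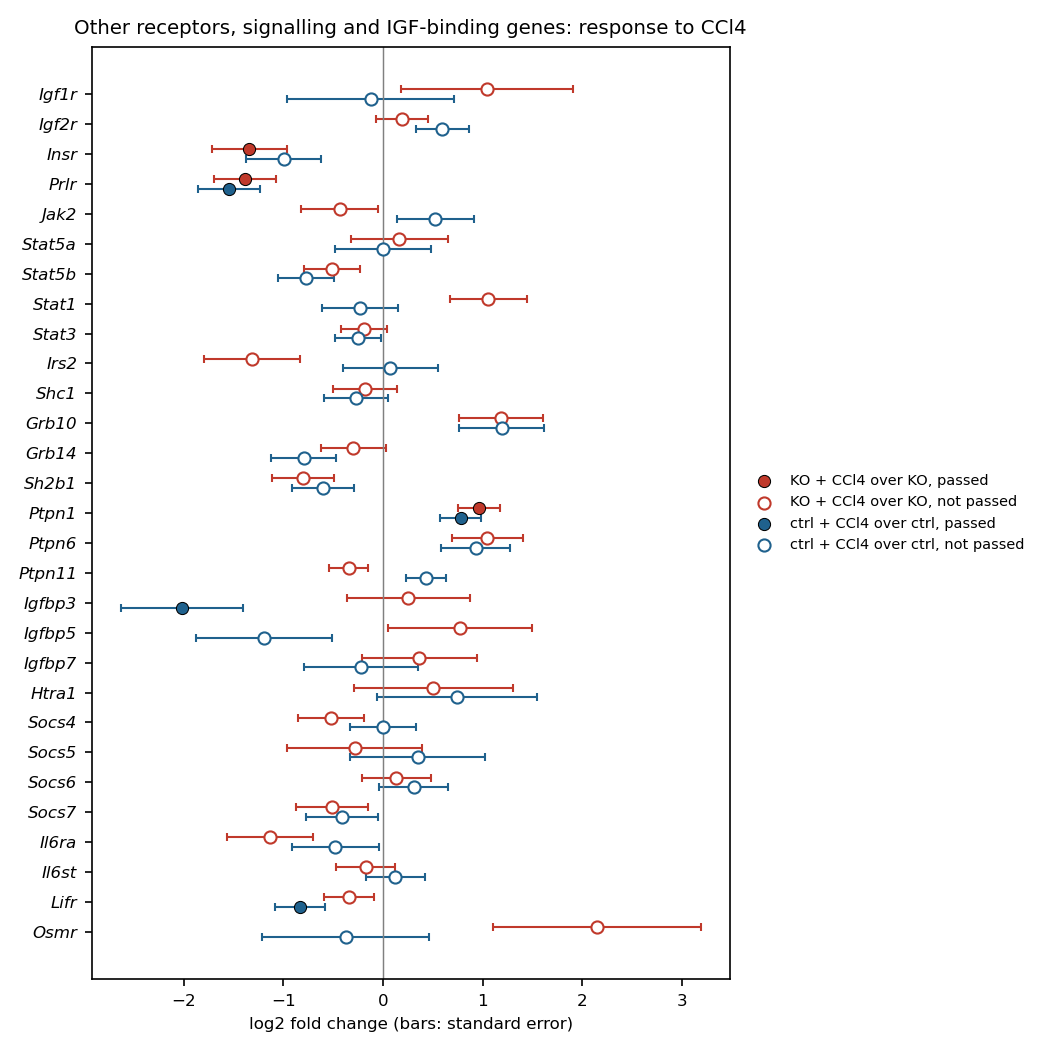
Log2 fold change after CCl4 (x axis, bars of 1 SE) of the tested receptors, signalling genes, further IGF-binding genes, SOCS genes and gp130 receptors (y axis), for knockouts (red, upper point of each pair) and controls (blue, lower point). Filled points passed the edgeR test at an adjusted p of 0.05: Insr, Prlr and Ptpn1 in knockouts, and Prlr, Ptpn1, Igfbp3 and Lifr in controls.

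The pattern of growth hormone release sets the sex bias of many liver genes, and these were read beside the axis. Of 14 genes known as female-biased in mouse liver, 13 were tested. In knockouts 7 of these fell, where 8.35% of all genes did, and in controls 7 fell, where 12% did. Their median log2 fold changes were -2.40 in knockouts and -2.49 in controls. The tested male-biased genes had medians of -1.02 in knockouts and -2.19 in controls. Of the 10 hepatocyte markers, 3 were called lower in knockouts and 9 in controls, so a fall was not particular to female-biased genes. Cyp17a1, a steroid hydroxylase, had 27.8, 39.8 and 67.8 CPM in Yap/Taz KO + CCl4, against 447, 950 and 432 CPM in Yap/Taz KO (-3.75 ± 0.38 SE, edgeR adjusted p = 1.63e-05). In controls it had 24.9, 19.2 and 29.96 CPM in ctrl + CCl4, against 422, 291 and 382 CPM in ctrl (-3.88 ± 0.39, 1.16e-05). Cyp2b9, whose close paralogs could share its reads, fell by -2.85 ± 0.35 in knockouts (8.89e-05) and by -2.51 ± 0.35 in controls (0.000151). Of 11 genes known as male-biased, 6 were tested and Cyp7b1, an oxysterol hydroxylase, fell in both genotypes (-2.20 ± 0.58, 0.0163 in knockouts, and -3.31 ± 0.59, 0.00104 in controls). In knockouts that call was lost in 5 of the 21 alternative settings, with adjusted p up to 0.0708. Among these were fits without Yap/Taz KO + CCl4 replicate 1 or 3 or Yap/Taz KO replicate 3 (adjusted p from 0.0557 to 0.0686). Cyp4a12a, a male-biased gene that was not tested, had 20.6 CPM in ctrl replicate 3 and at most 1.28 CPM in the other libraries. Hsd3b5 had 9.95 CPM there and at most 2.98 CPM elsewhere. The list was mixed in this respect. Mup20 had 23.5 CPM in ctrl replicate 3, against 1.65 and 10.1 CPM in ctrl replicates 1 and 2. Selenbp2 had 4.26 CPM in ctrl replicate 3, against 45.7 and 44.8 CPM in ctrl replicates 1 and 2.

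Of the 11 genes regulated by insulin or FOXO, the group to which Igfbp1 also belongs by function, 5 fell in knockouts and 7 fell in controls, against 8.35% of all genes in knockouts and 12% in controls, and none rose. Pck1, the gluconeogenic enzyme, had 348, 565 and 1075 CPM in Yap/Taz KO + CCl4, against 2575, 3601 and 1010 CPM in Yap/Taz KO (-1.85 ± 0.43 SE, edgeR adjusted p = 0.00829), and 192, 253 and 308 CPM in ctrl + CCl4, against 2085, 2497 and 2989 CPM in ctrl (-3.33 ± 0.46, 0.000138). In knockouts the groups overlapped, and the call was lost when libraries were scaled to the 10 hepatocyte markers (-1.03, 0.0674). G6pc, the last enzyme of glucose release, fell by -2.09 ± 0.32 in knockouts (0.000441) and -2.37 ± 0.32 in controls (0.000129). Insulin lowers Pck1, G6pc and Igfbp1 in liver and raises other genes of the list, so the list mixes genes of opposite regulation, and Igfbp1 itself did not pass in either genotype. None of the 6 lists had a member past the adjusted threshold in the knockout comparisons or in the difference between the injury responses.

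Genes whose pattern over the 12 libraries was most like that of Ghr, Igf1 and Igfbp1 were found among 5405 genes with a mean of at least 20 CPM, by the root mean square difference of log2 CPM after each gene's mean was removed. For Ghr they were Amy1 (0.167), Gckr (0.185) and Acsl1 (0.193), where the median gene differed by 0.934. Amy1, and C4b below, have related genes with which reads could be shared, so both counts are uncertain. Amy1 had 127 to 166 CPM in Yap/Taz KO + CCl4, 76.9 to 103 CPM in ctrl + CCl4, 406 to 473 CPM in Yap/Taz KO and 287 to 421 CPM in ctrl, the same order as Ghr within each injury state. Igf1 was closest to C4b (0.178), Mob1b (0.187) and Slc39a8 (0.195), with a median of 0.548. For Igfbp1 the closest genes were much less alike, Gas6 at 0.487, Igfbp7 at 0.540 and Sema6a at 0.559, with a median of 0.985. The 12 libraries fall into 4 groups, and all genes of a library share its depth and cell make-up, so the likeness is a description.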

How the data were processed

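RNA of sorted hepatocytes was turned into QuantSeq 3′ mRNA libraries, per the labels' protocols. The file the authors deposited holds raw read counts for each gene symbol, left unscaled as the values show. The submitters' processing notes list FastQC, cutadapt, STAR 2.6.1d, mm10 and GRCm38 but no roles for them. The sources used here do not say how reads were counted, on which annotation, or whether molecular identifiers were used. A gene on the opposite strand overlaps Igf1 (Igf1os, 19 counts in all), Cish (0 counts), Yap1 and Wwtr1, and none covers a 3′ end. Every pair of replicates differed by more than sampling noise (the lowest chi-square over its degrees of freedom was 9.27).

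The tests used edgeR 4.0.16 (R 4.3.3, limma 3.58.1). The filter was filterByExpr with a minimum count of 10 and a minimum total of 15, and scaling was by TMM (factors 0.776 to 1.31). A coefficient was fitted for each group over 12 samples, the two-sided quasi-likelihood F test was applied, and p-values were adjusted by Benjamini-Hochberg over 10780 genes at 0.05. CPM are TMM-scaled, and intervals cover 95%. The scripts were tested on simulated counts. Alternatives were RLE factors, library totals, dropping the filter, requiring 5 CPM in 3 samples, DESeq2 1.42.0, a replicate block, fits of the 6 samples compared, each library left out, and 2 scalings to hepatocyte markers added after the data were seen.

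The 9 members and all gene lists were chosen with earlier results of these data known. Named are all members, Yap1 and Wwtr1, genes of the 3 lists of signalling, IGF and SOCS genes, at most 4 genes past the threshold from each other list, and the 3 genes most like Ghr, Igf1 and Igfbp1. A gene taken by this rule is not reported here. Cyp4a12a, Hsd3b5, Mup20 and Selenbp2 were named after their values were seen. Gene identifiers and positions come from GENCODE M21 and promoters from RefSeq, both on GRCm38. Member fold changes smaller than their standard error are not given, a choice made after the data were seen.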

Additional observations from a re-analysis of the deposited data

How the results depend on the processing

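After CCl4, 2 axis genes passed in knockouts and 6 in controls. Leaving out 1 library at a time gave 1 to 2 in knockouts and 5 to 6 in controls, and 0 in the knockout comparisons and in the difference between the injury responses. For all genes it gave 1176 to 2331 in knockouts, 1666 to 3173 in controls, 0 to 3 for the knockout after CCl4, 0 to 1 for the knockout without injury and 0 for the difference. Library totals, which raised the median log2 fold change of all genes by 0.37 in knockouts and 0.36 in controls, left 1 axis gene in knockouts and 4 in controls. Higher and lower calls over all genes were 1016 and 900 in knockouts and 1137 and 1290 in controls with TMM; library totals gave 1814 and 406 in knockouts and 1974 and 698 in controls.

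Without the low-count filter Igfals also passed in knockouts (adjusted p = 0.0495), and edgeR called 109 genes for the knockout after CCl4, 210 without injury (Socs2, 1 of the axis, among them) and 115 for the difference (Igfbp2, 1 of the axis, among them). DESeq2 called 17, 43 and 12, and the fit of the 6 samples compared called 5 for the knockout after CCl4. Scaled to the 10 hepatocyte markers, all genes called numbered 3552 in knockouts, 5274 in controls and 1 for the knockout after CCl4, with 3 axis genes called in controls. Without Alb they numbered 4849 in controls and 1 for the knockout after CCl4, with 1 axis gene in knockouts and 2 in controls. With and without Alb, those scalings reversed Igf1 in knockouts (0.29 and 0.11), in controls (0.016 and 0.026) and for the knockout after CCl4 (-0.11 and -0.21), Igfbp4 in knockouts (0.21 and 0.022), Jak2 in knockouts (0.30 and 0.13), Stat5b in knockouts (0.23 and 0.030) and in controls (0.21 and 0.12), and Lifr in controls (0.11 and 0.052). With all 10 markers Igfbp1 in knockouts turned to 0.14; leaving out 1 library gave it -1.22 to 0.99, positive without Yap/Taz KO replicate 1. Socs3 in the knockout without injury lay between -0.88 and 0.090, positive without ctrl replicate 1. The cause of these changes was not tested.

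The main fit did not pair samples by replicate number, and the values do not settle whether such pairs exist. The correlation of deviations from the group mean ran from -0.15 to 0.32 for same-numbered samples, with 7 of 18 above 0.1. For the others it ran from -0.35 to 0.27, with 7 of 36 above 0.1. A fit with the replicate block called 2095 genes in knockouts and 2594 in controls after CCl4 and 0 in the other comparisons, with 2 axis genes in knockouts and 6 in controls.

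Of the axis genes Cish had the lowest count, 5, which carries a counting error of 44.7%. Groups of 3 samples limit the precision of every difference, and the p-values cover only the spread between these samples.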
